A study of Mus musculus with 4 samples.

Results

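The genes described here are the expressed zinc finger protein (Zfp) genes of cultured mouse cells labelled as female germline stem cells (FGSCs), a label that the cell type markers given further on went against. They are protein-coding genes named Zfp and a number alone. They were chosen by their measured level, a mean of at least 1 FPKM (fragments scaled to exon length and sequencing depth) over 4 Long RNA-seq libraries. Of the 53465 genes in the deposited table, 366 were protein-coding and carried such a name, and 218 of these (59.6%) reached the level. A further 26 of the 366 were listed at 0 in all 4 libraries. The libraries came from cells that carried a control shRNA (shNC, 2 libraries) or an shRNA against Nat10 (shNAT10, 2 libraries), labelled as ovary and germ stem cells of the line FGSCs. The shRNAs were delivered by lentivirus and the methods name puromycin and blasticidin S for selecting infected cells, without saying which agent the shNC cells received, if any. Nat10 encodes the acetyltransferase that writes N4-acetylcytidine (ac4C) on RNA. The comparison asks how the Zfp transcripts stood in these cells with less Nat10, and neither the strain nor the age of the animals behind the line is in the labels.

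Most Zfp genes encode proteins with C2H2 zinc fingers, short folds in which 2 cysteines and 2 histidines hold a zinc ion and a few residues read the bases of DNA. Tetrapod genomes carry them in large numbers, and many stand in tandem clusters that grew by gene duplication and differ from one mouse strain to the next. A large class begins with a KRAB box, a domain that recruits the corepressor TRIM28 (KAP1) and through it the H3K9 methyltransferase SETDB1, heterochromatin protein 1 and histone deacetylases. These KRAB zinc finger proteins silence endogenous retroviruses and other transposable elements and keep the methylation of imprinted regions. Other Zfp proteins without the box act in splicing, ribosome assembly, ubiquitin transfer or as classical DNA-binding regulators.

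A KRAB A box was called where a translated coding transcript of GENCODE M21 matched at least 10 of 16 conserved places of the box in a window of 33 codons. By this rule 123 of the 218 members had a KRAB box and 95 had none. The scores of 6 members lay between 8 and 12, so few calls were near the limit. The coding stretches of the box are shown for 3 neighbours of a chromosome 17 cluster that rose in shNAT10 (Zfp994, Zfp820 and Zfp942), for 2 risen members elsewhere (Zfp101 and Zfp445) and for 1 that fell (Zfp317). Each runs 5′ to 3′ for 99 bases, and capitals mark the codons that match a conserved place.
Zfp994: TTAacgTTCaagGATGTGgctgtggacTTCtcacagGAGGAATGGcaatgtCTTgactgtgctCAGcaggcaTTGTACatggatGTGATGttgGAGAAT
Zfp820: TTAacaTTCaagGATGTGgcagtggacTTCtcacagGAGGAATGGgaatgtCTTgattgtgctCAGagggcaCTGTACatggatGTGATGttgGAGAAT
Zfp942: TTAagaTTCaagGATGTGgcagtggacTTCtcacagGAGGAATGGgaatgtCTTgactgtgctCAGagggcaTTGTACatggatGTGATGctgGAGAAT
Zfp101: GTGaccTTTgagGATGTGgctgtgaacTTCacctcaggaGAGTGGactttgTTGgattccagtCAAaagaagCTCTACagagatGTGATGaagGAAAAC
Zfp445: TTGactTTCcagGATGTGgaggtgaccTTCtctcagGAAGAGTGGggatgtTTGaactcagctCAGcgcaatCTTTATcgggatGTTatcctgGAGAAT
Zfp317: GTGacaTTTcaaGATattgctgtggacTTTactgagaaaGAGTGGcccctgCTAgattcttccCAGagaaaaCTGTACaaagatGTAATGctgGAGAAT
On GRCm38 these stretches lie within single exons at chr17:22202698-22202796 for Zfp994, chr17:21821092-21821190 for Zfp820, chr17:21930388-21930486 for Zfp942 and chr17:33386707-33386805 for Zfp101, all on the minus strand. Those of Zfp445 and Zfp317 lie at chr9:122856721-122856819 on the minus strand and chr9:19642604-19642702 on the plus strand. The box of Zfp820 and that of Zfp942 each shared 92 of 99 bases with the box of Zfp994 (92.9%), against 60 bases (60.6%) for Zfp101, 69 (69.7%) for Zfp445 and 64 (64.6%) for Zfp317. Among the 27 KRAB members of chromosome 17 the median identity of a pair was 76.8%, from 50.5% to 100%. Against the 95 KRAB members of other chromosomes whose box lay in 1 exon, it was 67.7%, from 48.5% to 92.9%.

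Upstream sequences are shown because neighbouring members moved together, and whether they bear on expression was not tested. RefSeq start sites (GRCm38.p6) were given for 181 of the 218 members, with 223 promoter windows from 250 bases before to 50 bases after a start. The 250 bases before the start are printed for 4 risen KRAB members of chromosome 17, on the gene's strand, with capitals for any match to 1 of 7 motifs on either strand. These were the TATA box TATAAA, the NF-Y site CCAAT, the GC box GGGCGG, the E-box CACGTG, an ETS-like site spelt CCGGAAG, the YY1-like site ATGGCGG and the AP-1-like site TGAGTCA. Neighbouring motifs can overlap, as CCAAT and GGGCGG do in Zfp994 and Zfp947.
Zfp994: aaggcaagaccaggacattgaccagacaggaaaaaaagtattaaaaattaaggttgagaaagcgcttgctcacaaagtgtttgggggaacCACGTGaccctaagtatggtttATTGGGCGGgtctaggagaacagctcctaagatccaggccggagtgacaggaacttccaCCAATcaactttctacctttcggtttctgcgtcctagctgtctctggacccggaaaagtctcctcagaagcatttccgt
Zfp947: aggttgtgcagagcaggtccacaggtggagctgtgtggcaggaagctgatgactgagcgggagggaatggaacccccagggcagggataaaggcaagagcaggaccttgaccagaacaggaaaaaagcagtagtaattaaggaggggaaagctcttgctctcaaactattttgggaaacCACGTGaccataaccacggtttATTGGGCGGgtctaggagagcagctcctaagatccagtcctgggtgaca
Zfp820: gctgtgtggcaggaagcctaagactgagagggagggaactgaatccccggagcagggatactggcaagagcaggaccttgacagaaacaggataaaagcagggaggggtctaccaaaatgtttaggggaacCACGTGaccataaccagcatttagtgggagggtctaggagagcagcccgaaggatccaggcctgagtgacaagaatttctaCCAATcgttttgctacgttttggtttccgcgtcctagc
Zfp942: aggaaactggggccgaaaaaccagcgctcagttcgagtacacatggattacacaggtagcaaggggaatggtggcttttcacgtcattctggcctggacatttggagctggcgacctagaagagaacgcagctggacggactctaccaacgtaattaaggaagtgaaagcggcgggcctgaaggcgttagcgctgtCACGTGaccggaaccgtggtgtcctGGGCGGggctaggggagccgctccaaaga
These windows lie on the minus strand at chr17:22225615-22225864, chr17:22165978-22166227, chr17:21845760-21846009 and chr17:21962465-21962714. These 4 were picked because they hold the E-box, and the windows of the risen chromosome 17 KRAB members Zfp101, Zfp948 and Zfp995 do not. The longest run around it that the 4 share is CACGTGACC, 9 bases. The E-box was in 8 of the 27 promoters of chromosome 17 KRAB members (29.6%), where some divergent neighbours share a site. It was in 4 of the 95 promoters of KRAB members elsewhere (4.21%). For comparison, it was in 6 of the 101 promoters of members without the box (5.94%) and in 7.15% of all 32851 promoters. The longer run was in 9 of the 223 member promoters (4.04%) and in 365 of all promoters (1.11%), but it was chosen after these promoters had been seen. CCGGAAG was in 48 member promoters (21.5%) against 8.86% of all promoters, but in 1 of the 29 promoters of risen members (3.45%). GGGCGG was in 51.9% of the chromosome 17 KRAB promoters and 27.4% of those of KRAB members elsewhere, against 35.7% of all promoters, and TATAAA in 11 member promoters (4.93%) against 13.6%. These are matches of letters, and duplicated genes can share letters by descent.

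The libraries held 11.1 to 14.9 M fragments (M for mega) on genes, recovered from the FPKM. No member was under 3 fragments in any library, and the smallest count of a member was 15 fragments, for Zfp296 in shNAT10-1. Nat10 stood at 7.79 and 5.42 FPKM in shNC against 2.95 and 3.04 FPKM in shNAT10, lower in both (log2 fold change -1.09 ± 0.21, standard error; limma p = 0.00411, adjusted p = 0.123; exact permutation p = 0.3333, the smallest that 2 against 2 libraries allow). The markers went against the cell type label. Of 10 germline genes, Dazl, Pou5f1, Dppa3 and Tfap2c were listed at 0 in all 4 libraries and Ddx4 reached 0.0529 FPKM in 1, while Ifitm3 made up most of the list's sum, which was 9.96 and 22.7 FPKM in shNC against 27.8 and 34.4 FPKM in shNAT10. Ifitm3 itself was not called by limma (1.06 ± 0.43) and had an adjusted p of 0.00364 by limma-voom. All 9 pan-leukocyte genes, with Cd53 highest, had a mean of at least 1 FPKM. Their sum was 508 and 556 FPKM in shNC against 413 and 433 FPKM in shNAT10, and 5 of the 9 fell. Calls here use the threshold given below, passed upward by 11.1% and downward by 10.6% of protein-coding genes of at least 1 FPKM. The mast cell list summed to 313 to 323 FPKM, led by Cpa3 (245 to 272 FPKM), with 1 gene higher and 2 lower in shNAT10 and with Fcer1a and Tpsb2 at 0. The fibroblast list summed to 47.4 to 65.2 FPKM with Dcn highest, Lum at 0 and 3 of 8 genes higher in shNAT10. The granulosa cell list (2.45 to 3.81 FPKM, nearly all Inhba, with Foxl2 and Fshr at 0), the oocyte list (0.0642 to 0.292 FPKM, with Bmp15, Zp2, Zp3 and Figla at 0), the T cell list (0 to 0.275 FPKM, with Cd3e, Cd3g and Trbc1 at 0) and the B cell list (0.0895 to 0.286 FPKM, with Cd79b and Ms4a1 at 0) stayed low. The part of these shifts in the Zfp results was not tested, and in bulk RNA fewer cells of a type and less RNA per cell cannot be told apart.

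Most members were expressed at a low level. Their median was 3.26 FPKM (mean of 4 libraries), against 5.63 FPKM over the 9714 protein-coding genes that reached 1 FPKM. A mean of 1 to under 2 FPKM was found for 69 members, 2 to under 5 FPKM for 77, 5 to under 10 FPKM for 51 and 10 FPKM or more for 21. KRAB members made up 45 of the 69 lowest and 5 of the 21 highest, with a median of 2.65 FPKM against 3.76 FPKM without the box. The member with the highest level was Zfp207 (BuGZ), a kinetochore and splicing protein, at 48.1 and 46.2 FPKM in shNC against 46.9 and 47.6 FPKM in shNAT10. The E3 ubiquitin ligase gene Zfp91 followed at 25.6 and 25.3 FPKM in shNC against 25.9 and 24.3 FPKM in shNAT10, and these 2 genes were level between the groups within the spread of the libraries. Next came Zfp655 with a mean of 20.3 FPKM, Zfp869 with 20.1, Zfp593 with 19.1 and Zfp146, a protein made almost wholly of fingers, with 18.8. None of the 6 passed the test, and Zfp593 (19.4 and 22.8 against 17.6 and 16.7 FPKM; log2 fold change -0.30 ± 0.11) and Zfp146 (20.8 and 20.3 against 15.8 and 18.4 FPKM; -0.26 ± 0.11) were lower in both shNAT10 libraries, as were Zfp655 (21.1 and 21.6 against 19.0 and 19.4 FPKM; -0.15 ± 0.08) and Zfp869 (20.6 and 21.2 against 19.5 and 19.1 FPKM; -0.11 ± 0.08). Just inside the level were Zfp574 (mean 1.04 FPKM) and Zfp712 (1.07 FPKM), and just outside it Zfp273 (0.944 FPKM) and Zfp810 (0.929 FPKM).

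**Figure D1:**
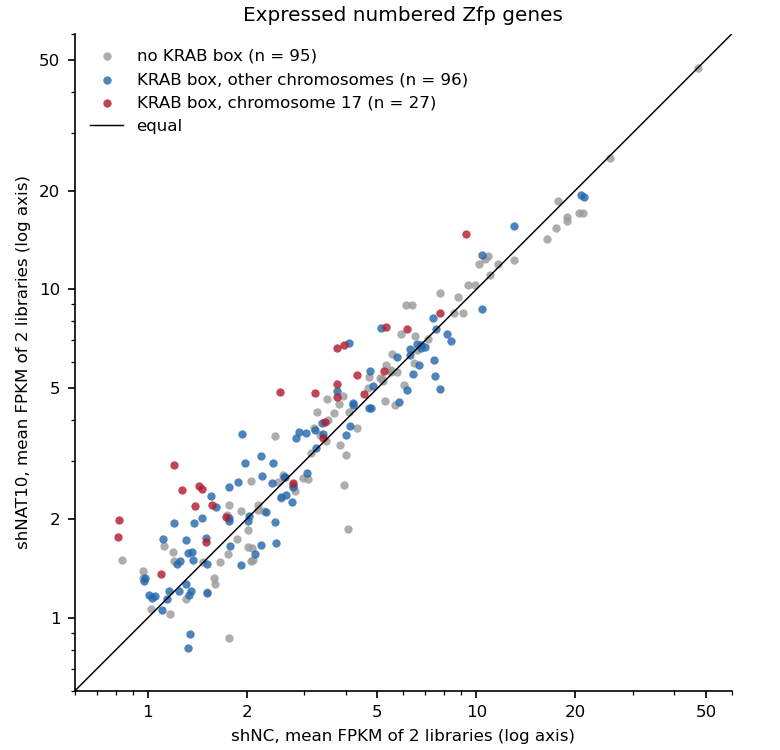
Mean FPKM of each of the 218 members in the 2 shNC libraries (x axis) and the 2 shNAT10 libraries (y axis), both on log axes. KRAB members of chromosome 17 (n = 27) are red, KRAB members of other chromosomes (n = 96) blue and members without a KRAB box (n = 95) grey. Most points lie near the line of equal levels, and 26 of the 27 red points have a log2 fold change above 0.

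In shNAT10, 25 members rose and 9 fell. Genes counted as higher or lower (risen or fallen) if they differed by more than 1.2-fold with an unadjusted limma p not above 0.05 on log2(FPKM + 0.1). The model was fitted across 20116 genes, and all fold changes below are on this log2 scale, which understates changes of low genes. The background was 8.41% of all tested genes higher and 7.83% lower, and among protein-coding genes of at least 1 FPKM 11.1% higher and 10.6% lower. The members' shares were 11.5% higher and 4.13% lower, so the share that rose was near that of the protein-coding genes, whose median level was higher, and the share that fell was below theirs. No test of either difference was run. The median log2 fold change of the members was 0.06, against 0.01 over all tested genes and -0.01 over the protein-coding genes. No member reached an adjusted p under 0.05 (limma, Benjamini-Hochberg; 0.437% of all tested genes did), 35 had an unadjusted p under 0.05, and the smallest adjusted p was 0.0807 for Zfp994. By limma-voom on the recovered fragments 37 members rose and 13 fell at the same threshold, against 14.0% and 13.9% of the protein-coding genes. Of the members, 18 (8.26%) had an adjusted p under 0.05 and were higher, against 4.23% of all tested genes and 6.99% of the protein-coding genes of at least 1 FPKM. Lower by the same measure were 2 members (0.917%), against 3.64% and 6.30%. All 34 called members had groups that did not overlap, which a call on the same libraries largely brings about. Over all 218, both shNAT10 libraries were above both shNC libraries for 74 members and below them for 43, with backgrounds of 28.0% and 29.1%. Leaving out shNAT10-1 or shNAT10-2 left 8 rises either way, with 2 and 5 falls. The labels do not say whether the libraries came from separate cultures, so p-values measure the spread between these libraries.

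Of the 12 largest rises, 9 were KRAB genes of chromosome 17. Zfp101 was at 0.975 and 0.658 FPKM in shNC against 1.97 and 2.01 FPKM in shNAT10 (1.21 ± 0.25, log2 fold change and standard error; limma adjusted p = 0.139). Zfp820 was at 1.31 and 1.09 FPKM in shNC against 3.19 and 2.63 FPKM in shNAT10 (1.21 ± 0.20; limma adjusted p = 0.103). Zfp947 was at 0.978 and 0.645 FPKM in shNC against 2.00 and 1.52 FPKM in shNAT10 (1.04 ± 0.29; limma adjusted p = 0.211). Zfp101 and Zfp947 reached the member level of 1 FPKM only through shNAT10, with shNC means of 0.816 and 0.812 FPKM. In Zfp101, Zfp820 and Zfp947 the lower shNAT10 library stood above the higher shNC library, as the groups were apart in every called member. Zfp994 had the tightest values, at 2.51 and 2.54 FPKM in shNC against 4.87 and 4.91 FPKM in shNAT10 (0.93 ± 0.12). Zfp960 was at 1.44 and 1.11 FPKM against 2.57 and 2.35 FPKM (0.91 ± 0.20), and Zfp948 at 3.29 and 4.26 FPKM against 6.13 and 7.17 FPKM (0.81 ± 0.18). The spread within a group was smaller than the gap between the groups here too. Zfp995 (1.40 and 1.46 against 2.52 and 2.51 FPKM; 0.77 ± 0.16), Zfp942 (4.14 and 3.75 against 7.38 and 6.19 FPKM; 0.76 ± 0.14) and Zfp943 (1.56 and 1.36 against 2.28 and 2.66 FPKM; 0.72 ± 0.18) complete the 9. Zfp820 and Zfp994 kept their call in all 15 alternatives, and the other 7 kept theirs in 12 to 14 of them. The 15 include median-ratio rescaling, which repeats the main fit because its factors were equal.

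The other 3 of the 12 lay elsewhere. Zfp445 on chromosome 9, which with ZFP57 protects imprinted methylation, was at 2.19 and 1.68 FPKM in shNC against 3.70 and 3.54 FPKM in shNAT10 (0.88 ± 0.18; adjusted p = 0.142 by limma and 0.000672 by limma-voom). Zfp971 on chromosome 2 was at 3.77 and 4.44 against 7.35 and 6.36 FPKM (0.73 ± 0.15), and 22.1% of its 100-base windows also stand in transcripts of other genes. Zfp953 on chromosome 13 was at 1.18 and 1.22 against 1.89 and 2.01 FPKM (0.65 ± 0.18), and it lost its call when any 1 library was left out. All 3 carry a KRAB box.

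The 9 falls were spread over chromosomes 1, 4, 6, 7, 9 and 13, with none on chromosome 17. Zfp575 was at 3.63 and 4.52 FPKM in shNC against 1.54 and 2.19 FPKM in shNAT10 (-1.10 ± 0.23; adjusted p = 0.142 by limma). Zfp296, a factor of pluripotent cells, was at 1.67 and 1.86 FPKM in shNC against 0.587 and 1.15 FPKM in shNAT10 (-1.01 ± 0.35), and shNAT10-1 was the lower of the pair in both genes. Zfp317 was at 7.62 and 7.90 FPKM against 4.46 and 5.49 FPKM (-0.64 ± 0.14). The fall of Zfp712 (1.44 and 1.21 against 0.803 and 0.822 FPKM; -0.64 ± 0.22) concerned a gene near the level limit. Zfp296 and Zfp712 reached that limit only through shNC, with shNAT10 means of 0.87 and 0.81 FPKM. Zfp189 (4.19 and 3.73 against 2.44 and 2.65 FPKM; -0.62 ± 0.14) and Zfp790 (7.42 and 7.55 against 5.73 and 5.19 FPKM; -0.45 ± 0.11) had narrow spreads in both groups. Zfp142 (-0.45 ± 0.16), Zfp84 (-0.35 ± 0.12) and Zfp956 (-0.34 ± 0.12) fell least. Of the 15 alternatives, Zfp142 and Zfp956 lost their call in 9, Zfp712 in 7, Zfp84 in 6 and Zfp296 in 5, and the replicate block alone ended the calls of Zfp142, Zfp956, Zfp712 and Zfp84. By limma-voom, Zfp575 and Zfp317 had an adjusted p under 0.05 (0.00285 and 0.00564). KRAB boxes were found in 4 of the 9, namely Zfp317, Zfp712, Zfp790 and Zfp84.

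**Figure D2:**
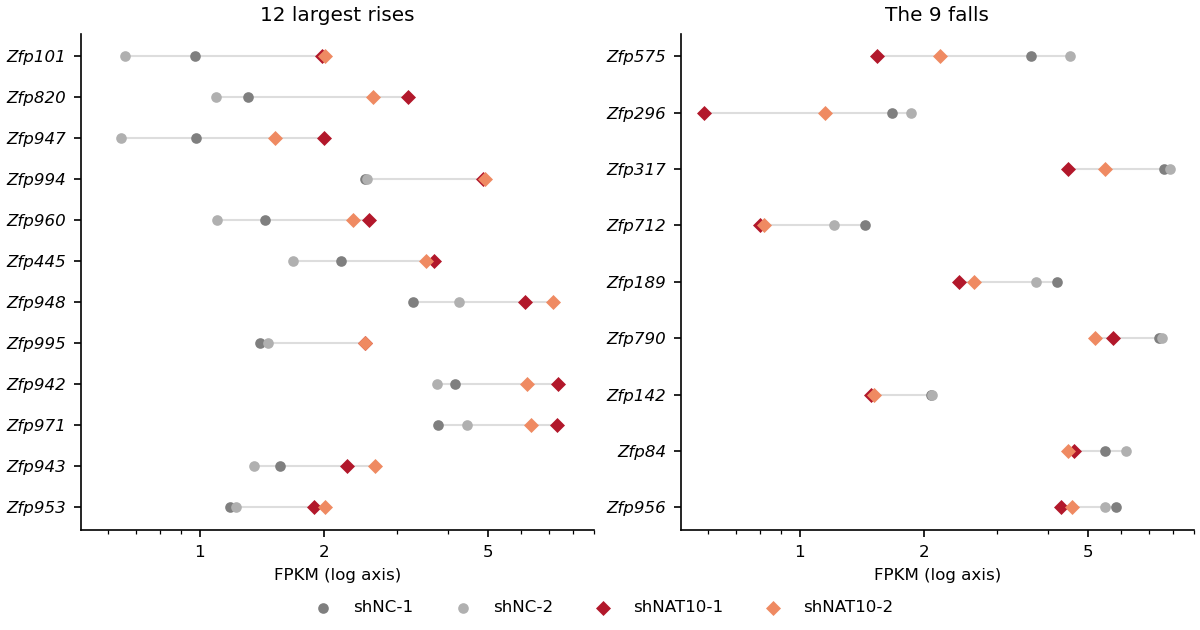
FPKM (log axis) of each library for the 12 largest rises (left) and the 9 falls (right), with shNC libraries as grey circles and shNAT10 libraries as red or orange diamonds. In every row both diamonds lie on one side of both circles, to the right for Zfp994 (4.87 and 4.91 against 2.51 and 2.54 FPKM) and to the left for Zfp575. The rows were chosen by calls on these same libraries.

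Rises were unevenly spread over the chromosomes. Chromosome 17 held 31 members, of which 14 rose by limma and 16 by limma-voom and none fell by either, with a median log2 fold change of 0.35. The other 472 protein-coding genes of at least 1 FPKM on that chromosome had a median of 0.02, with 62 higher and 45 lower. The 187 members off chromosome 17 had 11 rises and 9 falls (5.88% and 4.81%; 21 and 13 by limma-voom) and a median of 0.04. Chromosome 7 held the most members, 53, with no rise by limma (2 by limma-voom) and 4 falls (7.55%) and a median of 0.00. The other 645 protein-coding genes there had 52 rises (8.06%) and 105 falls (16.3%) and a median of -0.07. Chromosome 13 held 23 members with 2 rises and 1 fall and a median of 0.17. On chromosome 13 the other 392 protein-coding genes had 88 rises and 24 falls, while the members' shares there (8.70% and 4.35%) were below the 11.1% and 10.6% of all protein-coding genes. The chromosomes were compared after the values had been seen, and no test of the difference between them was run.

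**Figure D3:**
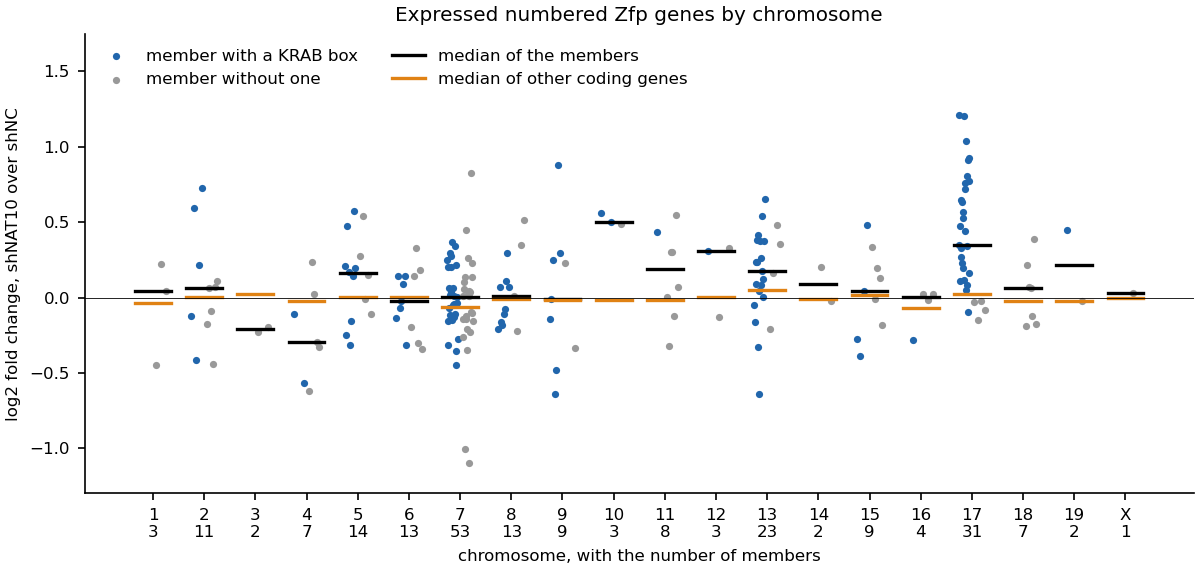
Log2 fold change (shNAT10 over shNC) of each member by chromosome, with the number of members under each name, KRAB members in blue and the others in grey. Black bars are the median of the members and orange bars the median of the other protein-coding genes of at least 1 FPKM on that chromosome, and chromosome 17 stands at 0.35 against 0.02.

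All 14 rises of chromosome 17 were KRAB genes. Its 27 KRAB members had a median log2 fold change of 0.47, and 26 of them were above 0, while the 4 members there without a called box (Zfp213, Zfp318, Zfp523 and the ribosome quality control ligase gene Zfp598) had a median of -0.06 and no call. Both shNAT10 libraries stood above both shNC libraries for 18 of the 27, where the background is 28.0%. Taken one library against one, 20 to 26 of the 27 were higher in the shNAT10 library, with medians of 0.43 to 0.58. Between the shNC libraries the median difference was 0.03 with 16 of 27 higher in shNC-2, and between the shNAT10 libraries it was 0.00 with 13 of 27 higher in shNAT10-2. Across the 191 other members the medians between groups ran from -0.01 to 0.03. With 1 library left out, 5 to 12 of the 27 rose, 5 where a shNAT10 library was missing, and their median stayed between 0.45 and 0.60. By limma-voom 12 of the 27 had an adjusted p under 0.05, all higher.

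Along chromosome 17 the KRAB members form 2 runs of at least 5 genes with less than 1 Mb from one start to the next. The first runs from Zfp160 to Zfp40, at chr17:21008903-23193252 (2.18 Mb), and held 19 KRAB members, of which 11 rose, with all 19 above 0 and a median of 0.53. By start position 8 of the 11 rises were in unbroken order, from Zfp760 to Zfp944. Zfp52 and Zfp948 formed a pair, Zfp54 stood alone, and Zfp51, Zfp53 and Zfp983 between these did not pass. Lower values in the run included those of Zfp945 (3.37 and 3.44 against 3.52 and 3.56 FPKM; 0.05 ± 0.13) and Zfp677 (0.23 ± 0.18), and neither passed. The most abundant gene of the run, Zfp52, was at 9.43 and 9.22 FPKM in shNC against 14.1 and 15.3 FPKM in shNAT10 (0.65 ± 0.10; adjusted p = 0.0899 by limma). The second run, from Zfp871 to Zfp101 at chr17:32765496-33394641, held 5, of which Zfp81 (2.89 and 3.59 against 4.85 and 4.80 FPKM; 0.57 ± 0.16) and Zfp101 rose, and the other 3, Zfp871, Zfp472 and Zfp952, did not pass. Within the first run only 2 other protein-coding genes without a KRAB box reached 1 FPKM, with 1 of them higher and a median log2 fold change of 0.82, above the 0.53 of the KRAB members. The second run held 1 such gene, at -0.39, against 0.34 for its KRAB members. The members of the runs named here beyond the 12 largest rises were chosen after their values had been seen.

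**Figure D4:**
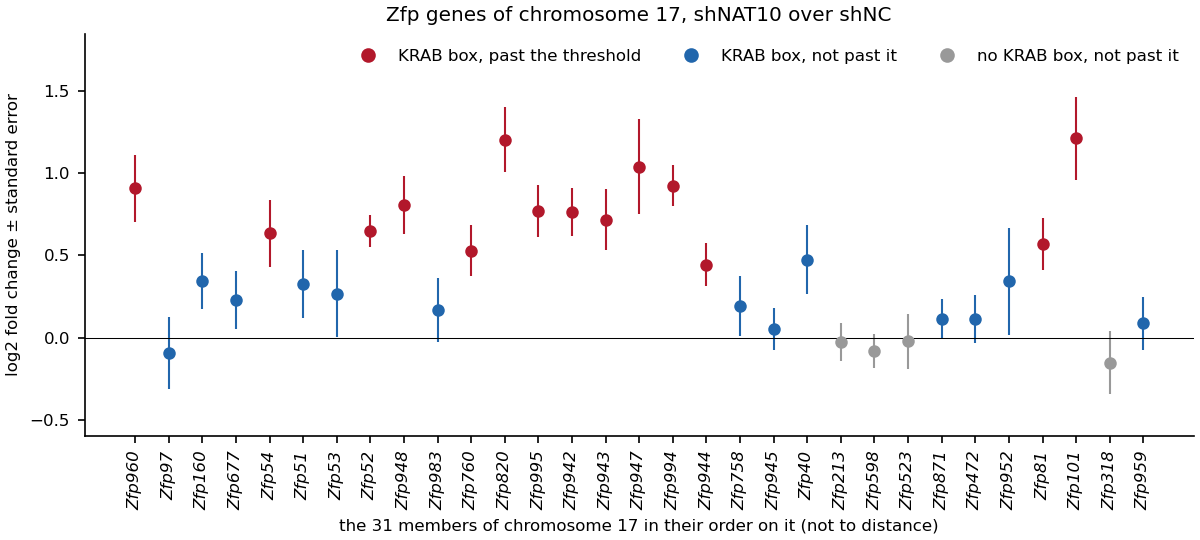
Log2 fold change (shNAT10 over shNC) with its standard error for the 31 members of chromosome 17, in their order on it and not to distance. Red points are KRAB members past the threshold, blue points KRAB members not past it and grey points members without a called KRAB box. The 14 red points lie between Zfp944 (0.44) and Zfp101 (1.21), and the 4 grey points lie at or below 0.

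KRAB runs of other chromosomes are given for comparison. The 13 KRAB members at chr13:67038596-67792512 had 1 rise and 1 fall, a median of 0.23 and 11 values above 0. The 8 at chr7:29768552-30134950 had no rise and 2 falls (median -0.04), and the 5 at chr6:47819266-48086593 had no call (median -0.02). Over all chromosomes other than 17, 6 of 96 KRAB members rose (6.25%; 12 by limma-voom), 4 fell (7 by limma-voom) and the median was 0.06. Members without a box had 5 rises and 5 falls of 95 (5.26% each; 9 and 6 by limma-voom) and a median of 0.01. Whether the difference between chromosome 17 and the other KRAB members exceeds what the libraries' spread gives was not tested.

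The E-box was set beside the calls of chromosome 17. Of the 24 KRAB members there with a RefSeq promoter, 8 had the E-box in a promoter. Of these 8, 6 rose, and the median log2 fold change of all 8 was 0.74. Of the 16 without it, 7 rose, and the median of all 16 was 0.34. The longer run CACGTGACC was in 7 of them (Zfp758, Zfp820, Zfp942, Zfp943, Zfp944, Zfp947 and Zfp994) and 6 of these rose, but the run was read from 4 of the risen genes, so this count is largely set by how it was chosen. Zfp942 and Zfp943 are divergent neighbours and share 1 E-box at chr17:21962513-21962518, as Zfp944 and Zfp758 share that at chr17:22361424-22361429. So the 7 genes stand for 5 sites, and the 8 with the E-box also stand for fewer sites than genes. Zfp758 (2.98 and 3.97 against 3.83 and 4.06 FPKM; 0.19 ± 0.18) did not pass while its neighbour Zfp944 rose (3.82 and 3.72 against 4.84 and 5.51 FPKM; 0.44 ± 0.13). All 7 lie between Zfp820 and Zfp758 in the first run, where rises stand in unbroken order as far as Zfp944. The E-box and the place on the chromosome cannot be told apart there. Among members other than these, 10 had the E-box, of which Zfp512 rose and Zfp296 fell.

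Near-identical copies limit single genes. The share of a gene's 100-base transcript windows that also occur in another gene was above 10% for 19 of the 218 members, of which 3 rose, and 0 for 160 members, of which 15 rose and 7 fell (median log2 fold change 0.04). Of all 58 members with any shared window 10 rose and 2 fell (17.2% and 3.45%), with a median of 0.19. For the counts of this paragraph the background is 11.1% higher and 10.6% lower. Zfp960 and its neighbour Zfp97 have 68.3% and 67.3% of their windows in some other gene and hold the same KRAB box, and Zfp97 did not rise (2.38 and 3.14 against 2.26 and 2.89 FPKM; -0.09 ± 0.22), so how reads of shared sequence were split could change both values. Of the 25 KRAB members of chromosome 17 at or under 10%, 13 rose, and the median of all 25 was 0.47. Exons of 58 members overlap a gene on the other strand and those of 19 a gene on the same strand. Among the 147 members that overlap no other gene, 20 rose and 4 fell.

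The number of fingers, the exon length and the level were described for the rises and falls. The background is 11.1% higher and 10.6% lower by limma, and 14.0% higher by limma-voom. Each split holds the 14 rises of chromosome 17 among its 25, and whether it differs apart from them was not tested. Members with 0 to 4 fingers had 2 rises of 30, those with 5 to 9 fingers 6 of 68, those with 10 to 14 fingers 11 of 72 and those with 15 or more 6 of 48. By limma-voom these were 3, 8, 14 and 12 rises. Falls by limma were 0, 3, 3 and 3 in the same order. Among KRAB members with 15 or more fingers the median log2 fold change was 0.23 (35 genes, 5 rises), against 0.11 with 10 to 14 (51 genes, 11 rises) and 0.09 with 5 to 9 (34 genes, 4 rises). By exon length, the 73 shortest members held 12 rises, the 72 in the middle 7 and the 73 longest 6, but by limma-voom 12, 10 and 15. Falls by limma were 5, 3 and 1. By level, the 73 lowest members held 8 rises, the 72 in the middle 7 and the 73 highest 10, but by limma-voom 16, 11 and 10. Falls by limma were 3, 2 and 4. The median log2 fold changes were 0.17, 0.07 and 0.02 in that order, highest in the lowest members.

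Of 10 genes listed for roles in RNA handling and ribosomes, 9 were members and 1 of them rose, where the background is 11.1%. The groups did not overlap in 4 of the 9, with Zfp638 and Zfp326 higher and Zfp593 and Zfp106 lower, where the background is 28.0% above and 29.1% below. Zfp638, an RNA-binding nuclear matrix protein that also silences unintegrated retroviral DNA, was at 7.45 and 8.05 FPKM in shNC against 9.97 and 9.49 FPKM in shNAT10 (0.33 ± 0.10; adjusted p = 0.248 by limma), a call lost in 5 of 15 alternatives, the replicate block among them. Zfp598, which ubiquitinates collided ribosomes, was at 13.4 and 12.6 against 11.7 and 12.9 FPKM (-0.08 ± 0.10). Zfp622, a late 60S maturation factor, was at 6.77 and 7.49 against 6.84 and 7.34 FPKM (-0.01 ± 0.12). The groups overlapped in both. The ribosome assembly gene Zfp593 missed the threshold by limma but passed it, lower, by limma-voom, and Zfp106, Zfp326, Zfp346 and Zfp830 lay between -0.18 and 0.27. The listed Zfp36, which drives decay of AU-rich mRNAs, was below the level at 0.319 to 0.534 FPKM. Its relative Zfp36l1, which the name rule leaves out, rose from 2.88 and 2.90 FPKM to 4.90 and 4.19 FPKM (0.63 ± 0.14). All 3 genes of the ubiquitin and SUMO list, Zfp91, Zfp451 and Zfp598, were members without a call.

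Of 18 genes listed as chromatin cofactor partners or known DNA-binding regulators, 13 were members and none was called (limma; 0 of 13 at an unadjusted p under 0.05, and by limma-voom Zfp516 passed the threshold). The background is 11.1% higher and 10.6% lower. Their log2 fold changes ran from -0.23 for Zfp592 to 0.52 for Zfp703, a corepressor partner at 1.08 and 1.17 FPKM in shNC against 1.503 and 1.81 FPKM in shNAT10, whose groups did not overlap. The most abundant was Zfp281, a regulator of pluripotency genes, at 9.85 and 11.9 against 12.5 and 12.7 FPKM (0.22 ± 0.13). Zfp410, which is known for its control of Chd4, was at 2.54 and 3.01 against 2.51 and 2.52 FPKM (-0.13 ± 0.16). Zfp423, of the same list, was listed at 0.

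Among 6 genes with a known imprint or retroelement target, 4 were members and 2 rose, Zfp445 and Zfp932, where the background is 11.1%. Zfp932, a repressor of endogenous retroviruses, was at 4.27 and 6.02 FPKM in shNC against 7.28 and 7.95 FPKM in shNAT10 (0.58 ± 0.20; limma adjusted p = 0.265), and 20.9% of its windows occur in other genes. Its call was lost in 5 of 15 alternatives, 2 of which kept all libraries (no filter, and limma without the trend). Zfp568, which silences a placental Igf2 promoter, was at 2.55 and 2.04 against 2.06 and 2.13 FPKM (-0.12 ± 0.18). Zfp809, which silences retroviruses through their primer binding site, was at 2.04 and 2.76 against 3.36 and 2.56 FPKM (0.29 ± 0.23). Both had groups that overlap. Zfp57, the best known imprint protector, was below the level at 1.17 and 0.779 against 0.758 and 0.655 FPKM, and Zfp708 was listed at 0.

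The proteins that KRAB boxes work through were expressed in all libraries. Of 35 listed corepressor and heterochromatin genes in the table, 5 rose and 2 fell, against 11.1% and 10.6% of the protein-coding genes of at least 1 FPKM (34 of the 35 reached that level), and the median log2 fold change was -0.01. Trim28, the KRAB corepressor, was at 29.6 and 26.3 FPKM in shNC against 26.2 and 27.2 FPKM in shNAT10 (-0.07 ± 0.10), and its partner methyltransferase gene Setdb1 at 5.54 and 5.16 against 5.41 and 4.997 FPKM (-0.04 ± 0.12). Groups overlapped in both. The rises were Cbx5, heterochromatin protein 1 alpha (13.2 and 11.2 against 18.3 and 17.9 FPKM; 0.57 ± 0.12), the DNA methylation cofactor gene Uhrf1 (17.5 and 13.2 against 22.8 and 23.9 FPKM; 0.62 ± 0.16), Atrx (0.50 ± 0.14), Suv39h1 (0.43 ± 0.14) and Smarca5 (0.42 ± 0.13). The falls were the NuRD remodellers Chd3 (12.3 and 9.95 against 7.77 and 7.98 FPKM; -0.48 ± 0.14) and Chd4 (5.71 and 5.12 against 4.26 and 3.66 FPKM; -0.44 ± 0.14).

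**Figure D5:**
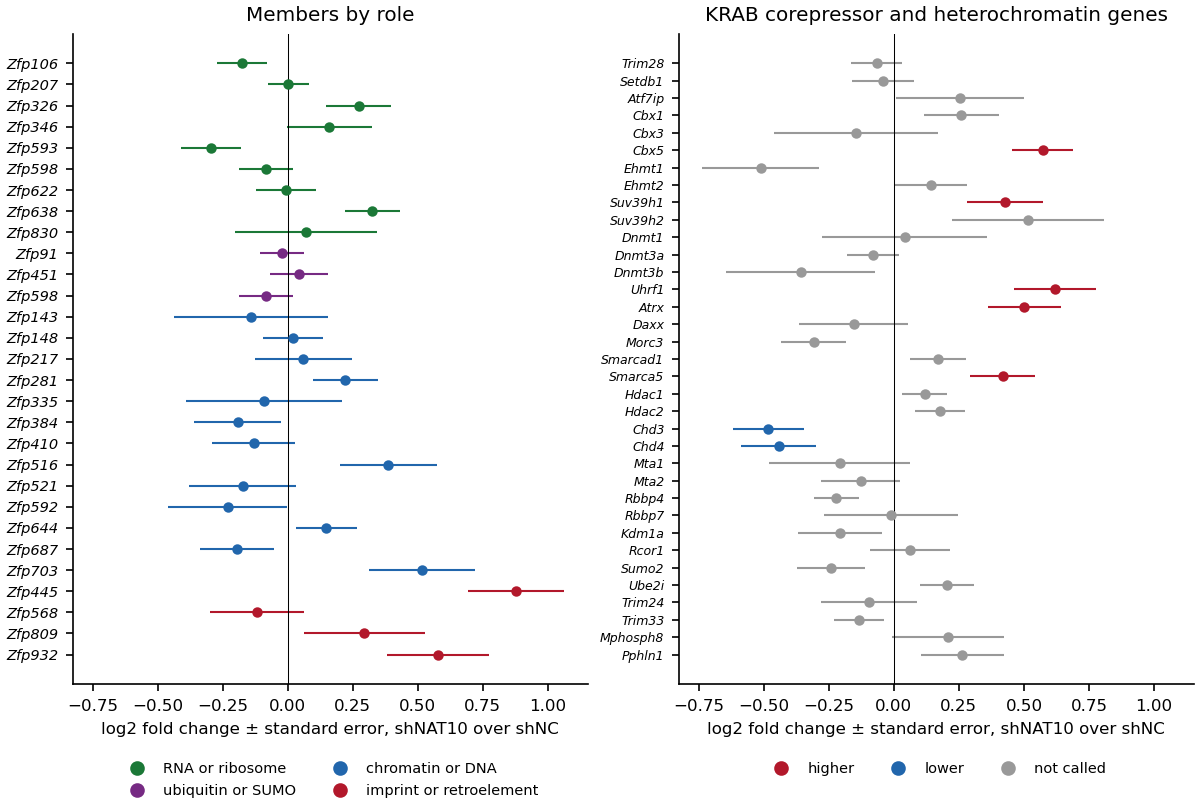
Log2 fold change (shNAT10 over shNC) with its standard error for the members of the role lists (left, coloured by list, Zfp598 shown in both of its lists) and for 35 corepressor and heterochromatin genes (right, red for higher, blue for lower, grey for not called). Zfp445 (0.88) lies farthest right among the members, and Uhrf1 (0.62) among the partners.

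Other zinc finger families were set beside the members, and their counts stand against 11.1% higher and 10.6% lower among protein-coding genes of at least 1 FPKM. Of 26 Zbtb genes of at least 1 FPKM none rose and 2 fell, of 7 Zkscan genes none rose and 1 fell, and of 7 Zscan genes none was called (limma). By limma-voom 1 Zbtb and 1 Zkscan gene rose, and 3 Zbtb and 1 Zkscan gene fell. Of 18 genes whose names begin with Zfp but hold more than a number, 4 rose and none fell, among them Zfp955a (8.37 and 8.07 against 10.3 and 10.8 FPKM; 0.36 ± 0.10) and Zfp955b (3.38 and 3.65 against 5.50 and 5.02 FPKM; 0.57 ± 0.13) in the second run of chromosome 17. Numbered Zfp genes from 0.1 to under 1 FPKM had 4 rises and 1 fall of 93 (9 and 3 by limma-voom) and a median of 0.17, against 8.41% higher and 7.83% lower of all tested genes. The protein-coding KRAB genes of at least 1 FPKM without the name, 42 genes grouped after their values had been seen, had 10 rises and no fall and a median of 0.33, and the 38 of them off chromosome 17 had 8 rises and the same median.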

How the data were processed

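Long RNA-seq was measured in 4 libraries, 2 shNC and 2 shNAT10, grouped by the genotype given in the labels. The methods describe a library kit for rRNA-depleted long RNA, while the labels describe poly(A) selection and directional kits, so the capture is uncertain. The deposited FPKM were made by the authors from reads mapped to mm10, and the submitters' processing notes name cutadapt, HISAT2 and DESeq2, with the counting program and annotation not given in the sources used here. Median-ratio factors were equal (1.004 in each library), so the authors had already scaled the FPKM between libraries. rRNA-related loci could shift such scaling, and a total without 362 of them was tried. A second deposited table of 13023 genes repeats the FPKM within 0.00024 and adds the authors' fold changes and p-values, which were not used. No column of a single library was left unused (0).

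The members, gene lists and comparisons were chosen with earlier results of these data known. R 4.3.3 with limma 3.58.1 (moderated variances, trend on) was used on log2(FPKM + 0.1) for 20116 genes with a mean of at least 0.1 FPKM, two-sided, with Benjamini-Hochberg adjustment, after it had been tested on simulated data with 200 changed genes. Whole fragments were recovered from FPKM and exon length, with 96.2% to 96.7% of values under 50 fragments whole within 0.02, and these were fitted by limma-voom as an alternative. Depth was 11.1 to 14.9 M fragments, and counts give counting error only. Genes were named by rule: the 12 largest rises and as many falls as passed up to 12, the 6 highest levels, the listed role genes and the 2 nearest on each side of 1 FPKM. KRAB boxes and fingers were read from translations of GENCODE M21 coding transcripts, where RefSeq proteins had been planned, and promoters from RefSeq. Alternatives changed the pseudocount, the filter, the scaling, the variance trend, the pairing, the member level and the libraries.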

Additional observations from a re-analysis of the deposited data

How the results depend on the processing

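With the 218 members and all 4 libraries kept, 20 to 37 rose and 5 to 13 fell across the alternatives, and no call of a member changed direction. Uncalled values near 0 did: Zfp91, Zfp622 and Setdb1 turned positive (0.05, 0.06 and 0.03) without the rRNA-related loci in the total. Falls numbered 5 when the FPKM were set to the same total without the rRNA-related loci, where 36 members rose and the median log2 fold change was 0.13, and 5 with the replicate number as a block (replicate block, 23 rises). The deviations of same-numbered libraries did not correlate (-0.00 over 12138 genes), which does not settle whether those libraries were prepared together. Without shNC-1, shNC-2, shNAT10-1 or shNAT10-2 in turn, 8 to 25 members rose and 2 to 8 fell, with a lone library assumed to vary like the other group. The Nat10 difference ran from -1.35 to -0.83 in these fits and missed the threshold without either shNAT10 library. With a member level of 0.5 FPKM, 28 of 264 rose and 10 fell, and at 2 FPKM 18 of 149 rose and 6 fell. Requiring a mean of 1 FPKM in the fit gave 1 member with an adjusted p under 0.05 (Zfp994, 0.0394 by limma), and limma-voom gave 20. With 2 libraries a group, small changes can go undetected.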
